A study of Mus musculus with 2 samples.

Results

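The keratin genes of the mouse were examined in DNase-seq of kidney tissue, an assay that reads open chromatin from the cuts of the enzyme DNase I. The set comprised the protein-coding genes of GENCODE M21 whose symbol is Krt followed by digits alone, except Krt8, Krt18 and Krt20. This gave 46 genes of 21938 protein-coding genes, 24 on chromosome 11 (the type I cluster) and 22 on chromosome 15 (the type II cluster). The rule names symbols and no measured value, but the set was chosen with earlier results of these data known. The 2 libraries came from kidneys of 36-day-old female mice of strain B6CASTF1/J, the hybrid of C57BL/6J and CAST/EiJ. Per the labels they are biological replicates 1 and 2 of 1 group, with no treatment or second tissue. The females are numbered separately but share a donor entry. All values are from whole kidney, so a low peak in many cells and a high peak in few cells cannot be told apart.

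Keratins are the intermediate filament proteins of epithelia. A type I (acidic) and a type II (neutral to basic) chain pair to build each filament, and the genes of the types lie in separate clusters, with the type I gene Krt18 standing at the end of the type II cluster beside Krt8. Simple epithelia make Krt8 and Krt18 with Krt7 and Krt19 in ducts, which in the kidney include the collecting duct, while most other members are made in epidermis, mucosa, cornea, hair and nail.

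Most keratin promoters had no accessible site in either library. A promoter peak is here a peak, of the stricter of the authors' 2 peak sets per library, that lies at most 1 kb from any annotated transcript start of a gene. Of the 46 genes, 4 had one in both libraries, 4 more in replicate 1 alone and the remaining 38 in neither. Among all protein-coding genes 60.7% had a promoter peak in both libraries, 66.9% in replicate 1 and 60.9% in replicate 2. The median number of annotated starts was 1 per member and 3 over all genes, so less sequence was searched per member. The part of this in the difference of shares was not tested. The clusters were alike in this count: Krt10 and Krt23 of the 24 type I genes (8.33%) and Krt80 and Krt7 of the 22 type II genes (9.09%) had a promoter peak in both. Krt10 encodes a filament protein of the upper epidermis, Krt23 a type I keratin of simple epithelia, Krt7 a keratin of ducts and urothelium, and Krt80 a type II keratin found in many epithelia. With 1 group and genes that are not replicates, no test was made, and shares are given beside those of all genes.

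The DNA under these peaks is given first, because the 4 genes differ in where the peak lies. Sequences are from RefSeq's GRCm38.p6, the mm10 build, read 5′ to 3′ on the gene's own strand, and bases of untranslated regions are left out. Capitals mark footprints, short stretches protected from DNase I, of replicate 1 that overlapped a footprint of replicate 2 over at least 50% of the shorter. Footprints that run past the end of a printed sequence are shown in part. The capitals that end the Krt80 sequence belong to a footprint of 16 bp. The capital that ends the Krt7 protein-coding start belongs to one of 11 bp.
Krt80 upstream peak (minus strand, chr15:101370501-101370680): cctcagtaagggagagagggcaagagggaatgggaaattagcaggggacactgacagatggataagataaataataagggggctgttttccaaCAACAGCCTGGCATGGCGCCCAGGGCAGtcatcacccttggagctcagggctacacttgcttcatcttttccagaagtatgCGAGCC
Krt7 upstream peak (plus strand, chr15:101410821-101411060): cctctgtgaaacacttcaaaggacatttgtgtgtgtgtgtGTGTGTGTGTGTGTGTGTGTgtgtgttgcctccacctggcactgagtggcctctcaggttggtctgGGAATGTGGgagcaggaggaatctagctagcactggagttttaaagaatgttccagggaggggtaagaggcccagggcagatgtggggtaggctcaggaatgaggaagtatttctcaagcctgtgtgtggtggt
Krt7 protein-coding start (plus strand, chr15:101412241-101412401): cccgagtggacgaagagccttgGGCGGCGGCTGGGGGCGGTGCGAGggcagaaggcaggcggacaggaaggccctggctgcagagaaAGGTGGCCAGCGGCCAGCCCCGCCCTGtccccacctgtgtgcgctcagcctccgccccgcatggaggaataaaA
Krt10 exon peak (minus strand, chr11:99385921-99386160): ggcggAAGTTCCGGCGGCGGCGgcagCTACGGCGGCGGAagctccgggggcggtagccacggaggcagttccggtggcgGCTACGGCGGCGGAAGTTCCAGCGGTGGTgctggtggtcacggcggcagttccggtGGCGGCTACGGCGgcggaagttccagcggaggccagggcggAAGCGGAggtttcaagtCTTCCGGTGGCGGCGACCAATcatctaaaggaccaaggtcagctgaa
Krt23 start (minus strand, chr11:99493138-99493360): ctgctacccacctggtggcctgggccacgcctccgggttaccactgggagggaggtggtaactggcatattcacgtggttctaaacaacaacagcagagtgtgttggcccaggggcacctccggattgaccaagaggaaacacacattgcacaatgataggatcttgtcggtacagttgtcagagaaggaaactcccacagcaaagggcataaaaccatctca
The Krt7 protein-coding start and the Krt10 peak are rich in G and C (70.2% and 69.2%), and the Krt80, upstream Krt7 and Krt23 sequences hold 51.7%, 52.1% and 53.4%. The Krt23 stretch has no matched footprint.

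Krt80 had the tallest promoter peak of the type II genes. Peak heights are the authors' signal values, whose scale the files do not state, and the value of each library is given. The upstream peak had a height of 4.17 in replicate 1 and 3.20 in replicate 2. Its middle lay at -418 and -438 bp from the gene's 5′ end, outside the gene. Of all genes with a promoter peak, 31.75% and 32.4% had a strongest peak as low or lower. Inside the gene, at the start of a shorter protein-coding transcript, another site had heights of 0.937 and 0.927. The site upstream of that start within an intron had 0.984 and 1.01. Within 1 kb of its start sites Krt80 held 12 footprints in replicate 1 and 13 in replicate 2, of which 5 matched. The matched ones at chr15:101370404-101370414, 101370447-101370457 and 101370459-101370469 lie outside the stricter peaks, between the upstream peak and the 5′ end. The widest of the matched footprints, 28 bp at chr15:101370560-101370587, lies in the upstream peak and holds an AP-2 motif (GCCNNNGGC).

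Krt7 had 2 accessible sites at its annotated starts. The site at its 5′ end, where a noncoding transcript starts, reached 2.64 in replicate 1 and 2.57 in replicate 2. The site at the start of a protein-coding transcript further on had 3.58 and 2.69. These strongest peaks ranked at 28.1% and 27.1% among genes with a promoter peak. Of 7 and 9 promoter footprints, 5 matched. In the upstream site a 9 bp footprint, chr15:101410927-101410935, holds a TEAD motif (GGAATG). A 20 bp footprint beside it lies wholly within a run of GT repeats. At the protein-coding start, footprints of 24 and 27 bp hold SP and KLF motifs (GGGCGG), the second together with an AP-2 motif. Of 6 markers of the collecting duct, where Krt7 is known to be made, Aqp2, Aqp3, Aqp4 and Scnn1g had promoter peaks in both libraries and Scnn1b and Avpr2 in replicate 1 alone. The strongest promoter peaks of those 4 ranged from 0.687 (Aqp2) to 6.41 (Scnn1g) in replicate 1 and from 0.988 to 3.67 in replicate 2. Which cells the Krt7 peaks come from was not tested.

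Krt10 had the tallest site of the set, but not at its 5′ end. The peak reached 11.2 in replicate 1 and 8.10 in replicate 2. Among genes with a promoter peak it ranked at 67.4% and 66.6%, the scale used for Krt80 and Krt7 above. It was higher than 96.0% and 93.1% of all peaks of those libraries, wherever they lie. On that other scale the upstream Krt80 peak was higher than 84.7% and 77.8%. Its middle lay 3324 and 3334 bp downstream of the 5′ end, 57 and 67 bp past the start of a shorter annotated transcript, and all of its 240 and 220 bases are exon. The GC share of 69.2% in replicate 1 was above that of 94.2% of peaks, and the stretch repeats GGCGGC 10 times with overlaps counted. Of its 6 matched footprints, 1 holds an ETS motif (CCGGAAG) and several cover copies of the same repeat. Near the gene's 5′ end, at 464 and 499 bp inside the gene and also in exon sequence, a peak had heights of 0.761 and 0.611. The part of base composition and repeats in the height of the tall peak was not tested.

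Krt23 had a low peak at its start, which reached 0.557 in replicate 1 and 0.632 in replicate 2. Its 3 footprints in replicate 1 and 1 in replicate 2 did not match over 50% of the shorter. The 4 members with a peak in replicate 1 alone were also below 1. Krt39, a hair keratin, had 0.770 at -312 bp from its start. Krt222, a keratin-related gene, had 0.473 at its 5′ end, and Krt19, the small type I keratin of ducts, had 0.464 in an intron. Krt1, the type II partner of Krt10 in the upper epidermis, had 0.696 at 484 bp past the start of an internal noncoding transcript. That Krt1 peak resembles the tall Krt10 one in place and composition: all of its 180 bases are exon, its GC share of 73.3% exceeded that of 97.2% of replicate 1 peaks, and it too repeats GGCGGC 10 times.
Krt1 exon peak (minus strand, chr15:101846021-101846200), shown beside that of Krt10 for its repeats, without matched footprints: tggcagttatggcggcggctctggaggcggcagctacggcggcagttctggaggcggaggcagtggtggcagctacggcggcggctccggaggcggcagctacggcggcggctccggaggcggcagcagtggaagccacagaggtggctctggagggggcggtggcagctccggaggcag

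**Figure D1:**
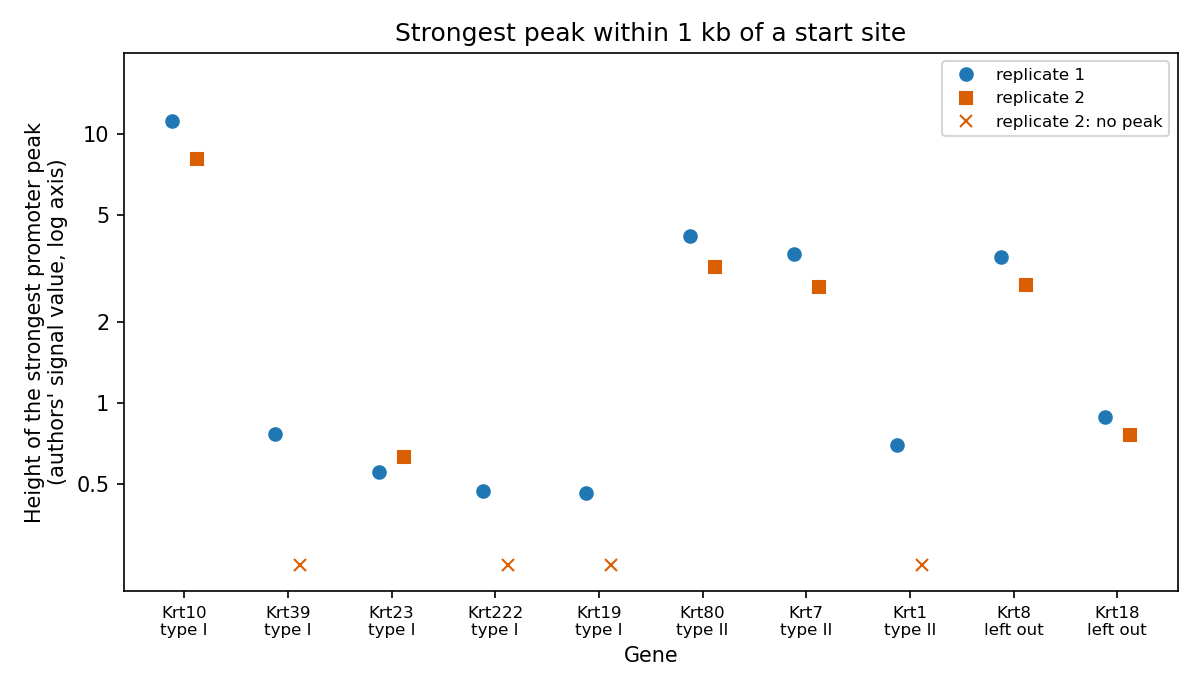
Height of the strongest peak within 1 kb of a start site (authors' signal value, log axis) for each gene with one, in replicate 1 (circles) and replicate 2 (squares), with crosses where replicate 2 had no peak. Krt10 stands at 11.2 and 8.10, Krt80 and Krt7 between 2.69 and 4.17 beside Krt8, and the other members below 1.

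Promoter peaks of replicate 1 that were missing from replicate 2 were mostly low. Replicate 2 had 68056 peaks in all against 124504. Of the 8 members with a promoter peak in replicate 1, 4 had none in replicate 2, against 9.26% of all such genes. Of the 5 members whose strongest peak was under 1, 4 were lost, and 78.0% of all genes with such low peaks were lost too. None of the 3 members at 1 or above was lost, against 3.28% of all genes. In the authors' wider peak set, 6 members had a promoter peak in both libraries, Krt19 and Krt1 being added, against 64.9% of all genes. In that set 9 members had one in replicate 1 (70.6% of all genes) and 6 in replicate 2 (65.2%). At Krt19 the wider set has a site at the start of a shorter protein-coding transcript, which spans that start in replicate 1 (0.315) and lies just inside the transcript in replicate 2 (0.611). Krt79 had a peak in replicate 1 of the wider set alone (0.269).

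The deposited false discovery rates allow a finer view of the promoters without peaks. They list every position with a rate below 0.05. Of the 46 members, 9 had any such position within 1 kb of a start in replicate 1, against 71.5% of all genes, and 6 in replicate 2, against 66.0%. The lowest rates were 7.71e-158 and 3.19e-104 at Krt10, 1.04e-29 and 2.17e-24 at Krt80, and 3.52e-27 and 1.23e-20 at Krt7. Krt1 had 2.18e-12 and 0.03085, Krt23 had 1.47e-08 and 9.07e-06, and Krt19 had 3.77e-05 and 0.00868. Krt39 (5.61e-13), Krt222 (1.615e-06) and Krt79 (0.000319) had such positions in replicate 1 alone. At the other 37 members in replicate 1 and 40 in replicate 2 no position was listed.

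The members were also grouped by where their proteins are known to be made. All 3 keratins of simple epithelia (Krt7, Krt19 and Krt23) had a peak in replicate 1 (66.9% of all genes) and 2 of them in both libraries (60.7% of all genes), and a share in a group this small is not set apart from that of all genes. None of the basal layer genes had any, namely Krt5 and its partner Krt14, and Krt15. In the upper epidermis Krt10 and Krt1 had the exon peaks described above, and Krt2, Krt9 and Krt77 had none. The genes of mucosa and cornea (Krt4, Krt12, Krt13, Krt76 and Krt78) and those of wounds and the companion layer of hair (Krt16, Krt17 and Krt75) had none. Nor had the 7 genes of the inner root sheath, which molds the growing hair (Krt25, Krt26, Krt27, Krt28, Krt71, Krt72 and Krt73). Of 12 hair keratin genes only Krt39 had a promoter peak, in replicate 1. Among the remaining 8 genes Krt80 had peaks in both libraries and Krt222 in replicate 1, with none at Krt24, Krt42, Krt79, Krt87, Krt88 and Krt90. Krt74 and Krt85 were not analysed here.

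The 3 genes left out by the rule were read for reference. Krt8 and Krt18, keratins of simple epithelia, lie beyond Krt78, and Krt20 lies inside the type I cluster between Krt12 and Krt23. Krt8 had one peak at its start with heights of 3.50 in replicate 1 and 2.74 in replicate 2, close to those of Krt7. Krt18 had 0.891 and 0.764. Krt20, an intestinal and urothelial keratin, had no promoter peak in the stricter set.

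The surroundings of the genes were counted next, as the gene with 10 kb of flank to either end. Here 11 of 22 type II genes and 7 of 24 type I genes had at least 1 shared peak, meaning a peak of replicate 1 that overlapped a peak of replicate 2. Among all protein-coding genes 75.7% had one. Counting all peaks of a replicate, shared or not, 17 type II and 13 type I genes had one in replicate 1 (82.4% of all genes). In replicate 2 it was 11 and 8 (75.9%). The median was 0.5 per type II gene and 0 per type I gene, against 2 over all genes and also 2 over the 10294 genes within the members' range of length. In replicate 1 the median was 2 for type II, 1 for type I and 4 for all genes, and in replicate 2 it was 0.5, 0 and 2. Neighbouring windows overlap, so members share peaks: the 25 shared peaks summed over type II genes were 20 separate ones, and the 9 of type I were 8.

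Krt80 led the set with 9 peaks in replicate 1, 8 in replicate 2 and 8 shared, and 15 matched footprints. Its sites before the 5′ end included those at 418, 1668, 2058, 4888 and 6698 bp, with heights in replicate 1 between 2.02 and 4.17 and in replicate 2 between 1.17 and 3.20. The site at 1668 bp holds a matched footprint with an SP and KLF motif and one with an ETS motif. Krt7 had 4 peaks in replicate 1 and 3 in replicate 2, all 3 shared, with 7 matched footprints. Krt10 was the leading type I gene, also with 3 shared peaks and 7 matched footprints. The 6 other type I genes with a shared peak had 1 each.

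Several members without a promoter peak lay beside accessible sites. The tallest site of the type II cluster, 5.55 in replicate 1 and 3.58 in replicate 2 at chr15:101927441-101927620, stands between Krt4, a keratin of esophagus and other wet mucosae, and Krt79, with a second site beside it (2.55 and 2.02). Both genes therefore counted 2 shared peaks. The hair keratin genes Krt84 and Krt81 also had 2 each. Krt81 shared its 2 with Krt88, and the taller of them lies in an exon of Krt88 (2.68 and 1.17). A site 5813 bp from a start of Krt72, an inner root sheath gene, had 3.79 and 1.76. At Krt5 and Krt14, the basal layer pair, 1 peak each lay within 10 kb in replicate 1 and none in replicate 2.

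**Figure D2:**
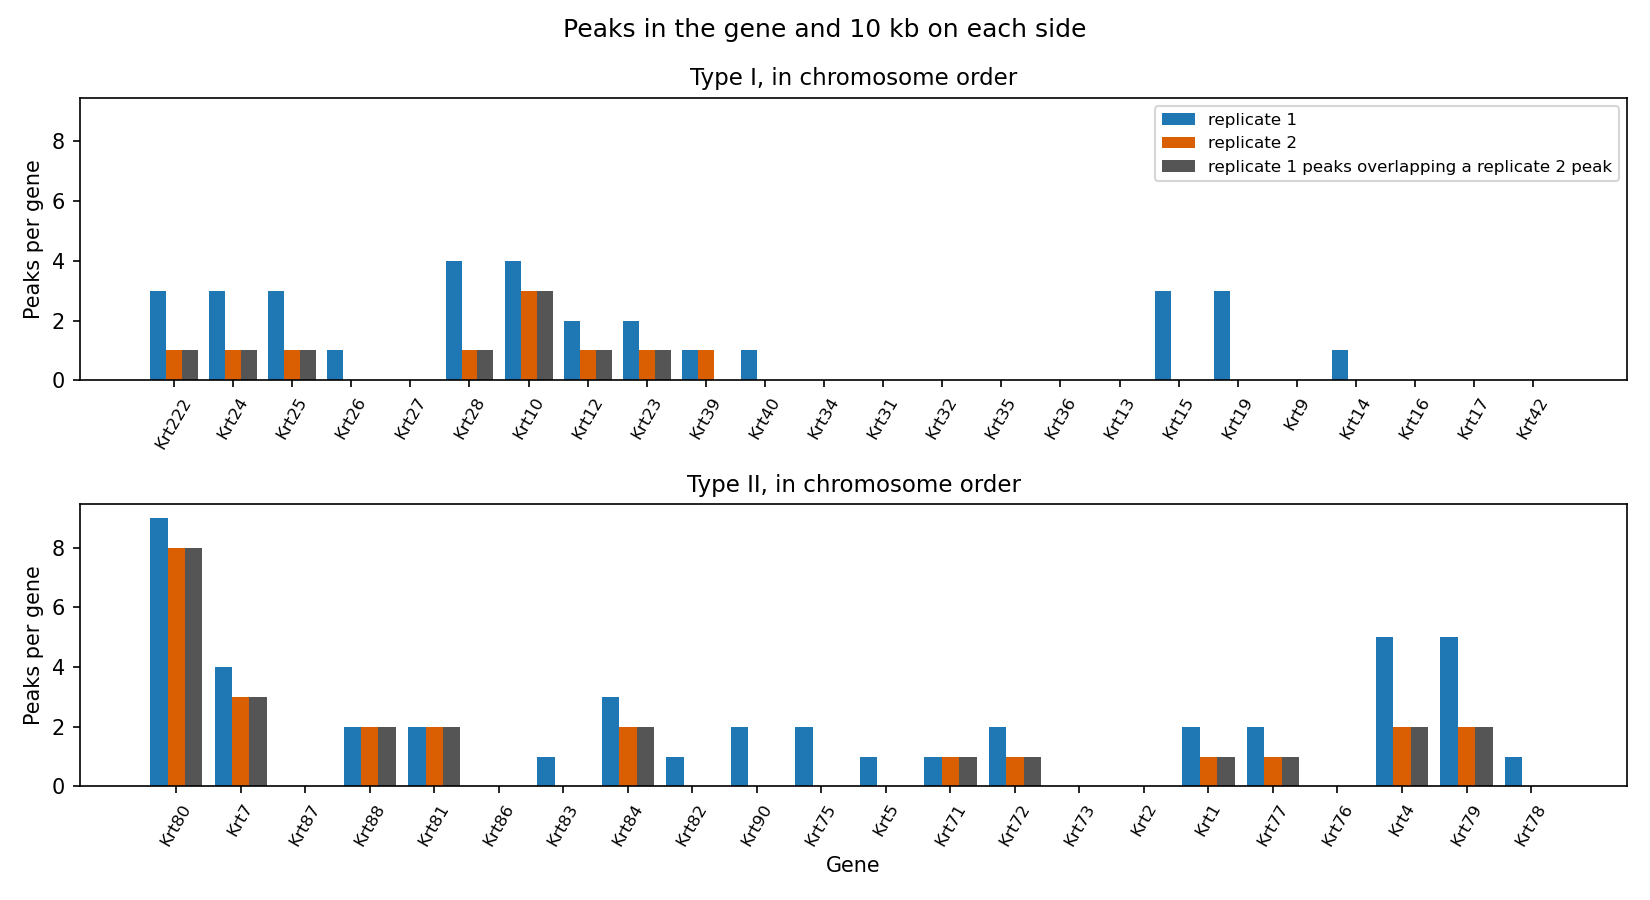
Number of peaks in each gene plus 10 kb on each side, in replicate 1, in replicate 2 and shared, for 24 type I genes (top) and 22 type II genes (bottom) in chromosome order. Krt80 reaches 9, 8 and 8, while the run from Krt34 to Krt42 in the type I cluster has no peak in replicate 2.

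Members with a promoter footprint were mostly those with a promoter peak, though not every footprint lay in a peak. A matched promoter footprint was present at Krt10 alone of the type I genes and at Krt80 and Krt7 of the type II genes, 3 of 46, against 59.0% of all genes. In replicate 1 8 members had a promoter footprint (67.6% of all genes) and in replicate 2 5 had (62.5%). Over the gene plus 10 kb, 8 type II and 6 type I genes had a matched footprint, against 74.4% of all genes, and the median was 0 in both clusters against 5 over all genes. Neighbouring windows share footprints too: those of type I held 15 separate matched footprints and those of type II 32. Krt15 and Krt19 counted the same 1 matched footprint, although no shared peak lay in their windows.

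Along the chromosome the accessible sites were gathered in a few stretches. From Krt222 to Krt42 the type I cluster spans 1037 kb of chromosome 11 (99232761 to 100269871) and held 14 shared peaks, 1.35 per 100 kb. The type II cluster spans 607 kb of chromosome 15 (101347444 to 101954287) and held 21, or 3.46 per 100 kb. The whole genome had 2.48 per 100 kb, and stretches of the same length tiled over it had medians of 1.83 and 1.65. Of those tiles 40.5% held fewer shared peaks than the type I cluster and 69.1% fewer than the type II cluster. Counting all peaks of a replicate, shared or not, the densities were 3.86 and 6.43 in replicate 1, and 1.45 and 3.46 in replicate 2. The shared peaks of the clusters were also unequal in height, with medians in replicate 1 of 1.40 (type I) and 2.46 (type II), against 2.52 for all shared peaks.

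Within the type I cluster 12 of the 14 shared peaks lay in the 310 kb from Krt222 to Krt40, with 11 members. Of those 12, 1 lies in an exon of Krt20, which is not a member (1.25 in replicate 1 and 0.784 in replicate 2). The 494 kb between Krt40 and Krt34, which holds the Krtap genes of hair matrix proteins, had 2. The 233 kb from Krt34 to Krt42, with 13 members, had none, and 7 peaks in replicate 1 with heights up to 1.51. That stretch includes Krt19, Krt14, Krt16 and Krt17. The longest stretch without a shared peak was 431 kb. Outside promoters the tallest type I site was at chr11:99461861-99462020 (6.81 in replicate 1 and 3.90 in replicate 2), in a group of 4 sites between Krt20 and Krt23 that lies beyond 10 kb from any member. These stretches were delimited after the peaks had been seen.

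Within the type II cluster 12 of the 21 shared peaks lay in the 82.9 kb of Krt80, Krt7 and the sequence between them, 14.5 per 100 kb. The other 9 were spread over the 524 kb from the end of Krt7 to Krt78, which holds 20 members, at 1.72 per 100 kb. Beyond Krt78 the 77.7 kb to Krt8 and Krt18 had 13 shared peaks, 16.7 per 100 kb. These stretches too were delimited after the peaks had been seen, and the last lies outside the cluster as defined above. The longest stretch without a shared peak, 211 kb, contains among others Krt75 and the basal keratin gene Krt5.

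**Figure D3:**
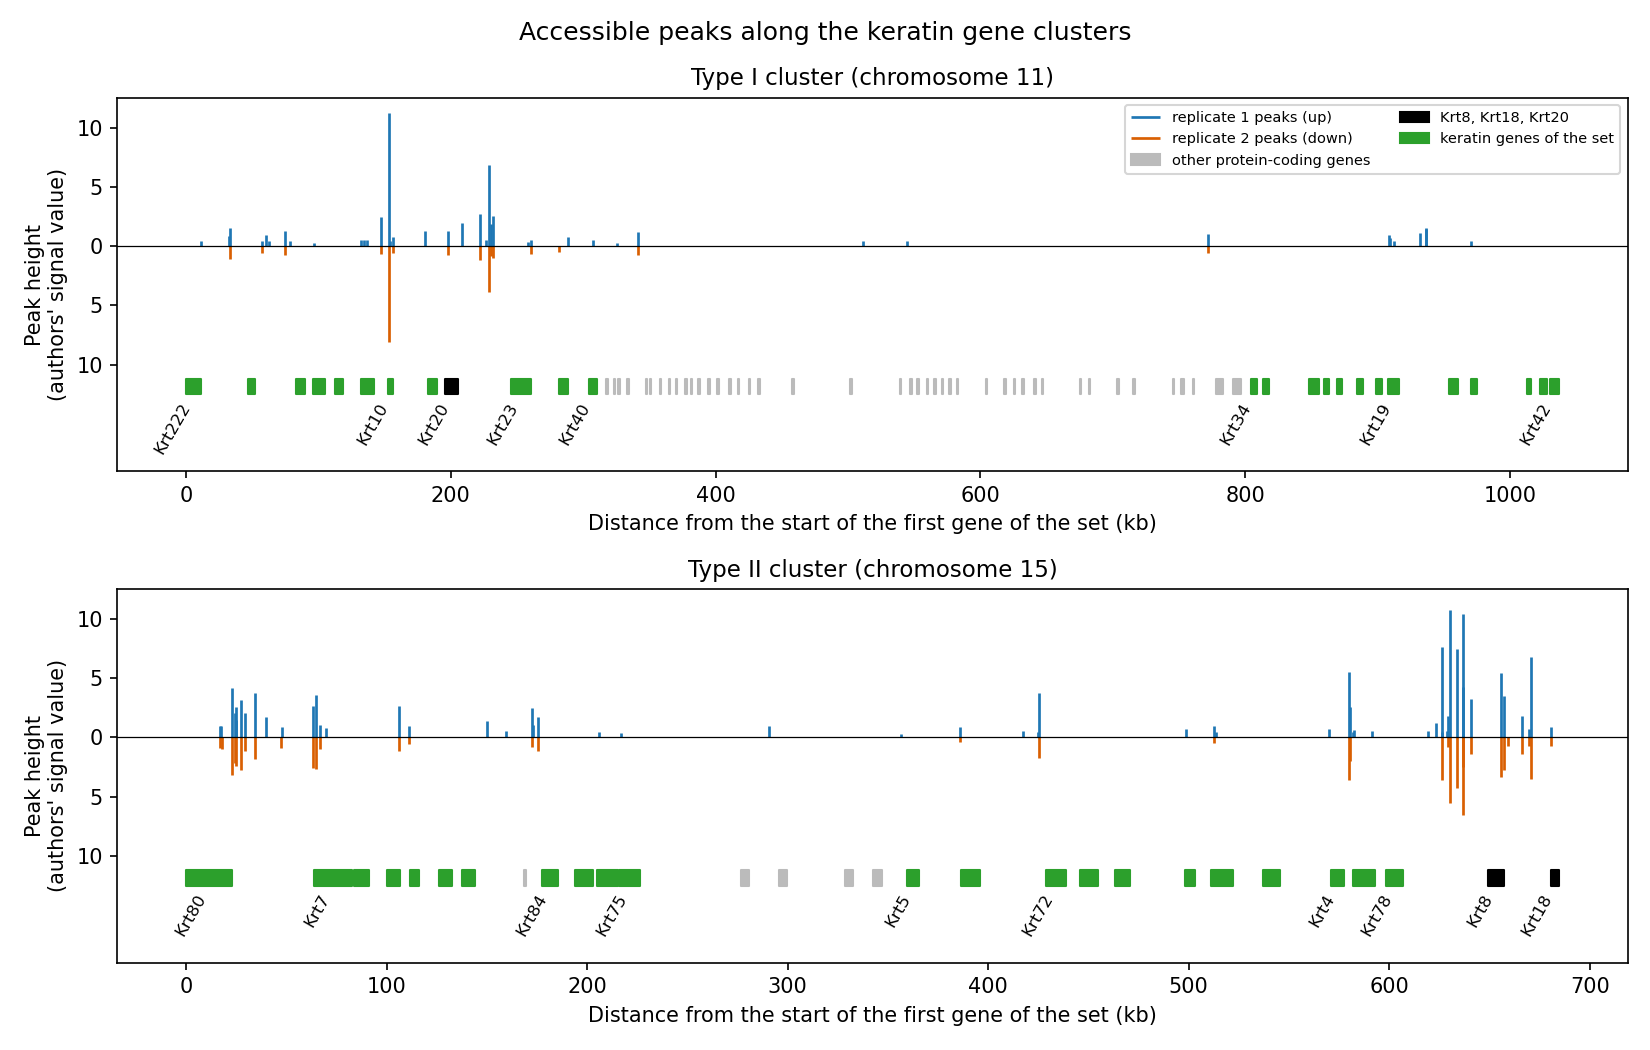
Height of every peak (authors' signal value, replicate 1 upwards, replicate 2 downwards) against the distance in kb from the start of the first gene, with gene positions as bars, for the type I and type II clusters. Sites gather between Krt222 and Krt23 in the type I cluster, and at Krt80, at Krt7 and around Krt8 in the type II cluster, which is drawn up to Krt18.

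Open promoters were commoner among genes rich in CpG, from 8.98% of the lowest decile to 93.9% of the highest, and keratin promoters are poor in it. The ratio of observed to expected CpG, taken over about 1 kb centred on the 5′ end, had a median of 0.31 in both clusters and of 0.552 over all genes. None of the 46 genes was among the 4 deciles of genes with the highest ratio, and 35 were in the lowest 4, where 24.9% of all genes had a promoter peak in both libraries. All 4 members with such a peak were among these 35. Of the 11 members in deciles 5 and 6 none had one, while 62.6% and 79.6% of all genes in those deciles had. Krt7 stands in the lowest decile by its 5′ end, where 8.98% of genes had one. The GC-rich start of Krt7 shown above lies further on in the gene and is not the one this ratio was taken at. Likewise the tall, GC-rich exon peak of Krt10, 3324 bp from the 5′ end in replicate 1, lies outside the stretch of this ratio.

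**Figure D4:**
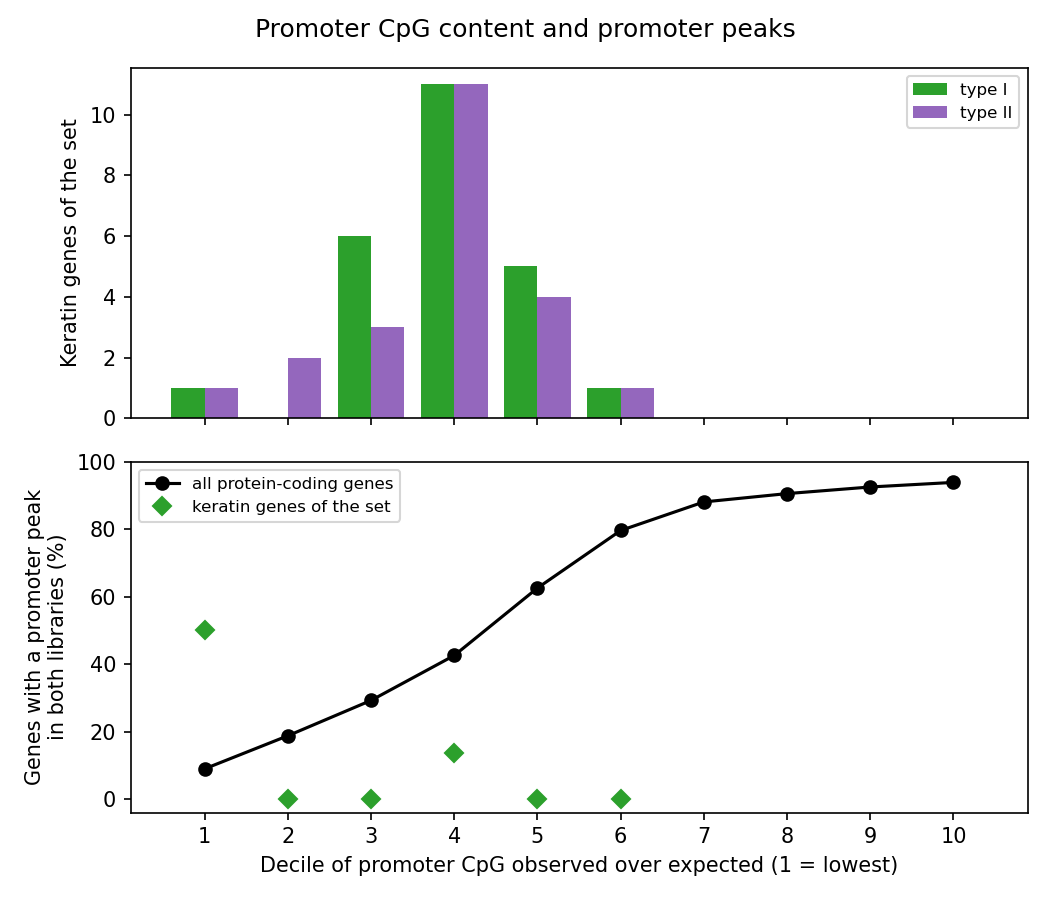
Number of type I and type II genes (top) and percent of genes with a promoter peak in both libraries (bottom), by decile of promoter CpG observed over expected, for all protein-coding genes (line) and the keratin genes (diamonds). The members fill deciles 1 to 6 with 22 in decile 4, and their share lies below the line in every decile they occupy but the lowest, which holds 2 of them.

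A feature that many members shared, and type I genes more often, was an exact match to the TATA box letters TATAAA close to the start. The letters TATAAA, on the gene's strand with the first base 20 to 40 bases before the 5′ end, were found at 10 of 24 type I genes (41.7%) and 4 of 22 type II genes (18.2%), against 2.42% of all genes. Among all genes with this match 23.2% had a promoter peak in both libraries, against 61.6% of those without. Of the 14 matching members only Krt10 had one. This narrow window was chosen after the wider search below. Variants of the letters were not counted. TATAAG, for example, stands before the 5′ end of Krt2 and Krt4 (type II) and of Krt24 and Krt39 (type I). How far the choice of letters set the difference between the clusters was not tested. The 60 bases before the 5′ end are printed for 4 type I and 2 type II genes, the match in capitals.
Krt25 (minus strand, chr11:99322952-99323011): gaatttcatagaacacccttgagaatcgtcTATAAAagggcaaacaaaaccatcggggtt
Krt10 (minus strand, chr11:99389365-99389424): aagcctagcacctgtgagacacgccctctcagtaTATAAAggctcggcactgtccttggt
Krt31 (minus strand, chr11:100050552-100050611): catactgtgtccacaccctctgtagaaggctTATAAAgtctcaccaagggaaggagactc
Krt17 (minus strand, chr11:100261030-100261089): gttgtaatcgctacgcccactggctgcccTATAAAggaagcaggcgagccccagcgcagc
Krt71 (minus strand, chr15:101743110-101743169): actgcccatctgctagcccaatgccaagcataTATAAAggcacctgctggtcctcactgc
Krt76 (minus strand, chr15:101892921-101892980): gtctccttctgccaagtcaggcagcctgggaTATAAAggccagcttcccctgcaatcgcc
Their first T stands between 26 and 31 bases before the 5′ end.

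In the wider window, 250 bases before to 50 after the 5′ end and both strands, TATAAA occurred at 16 type I genes (66.7%), 6 type II genes (27.3%) and 12.6% of all. The SP and KLF motif GGGCGG was less common in the set, at 2 type I and 4 type II genes (8.33% and 18.2%) against 43.0% of all genes. AP-2 matches were found at 4 and 7 (16.7% and 31.8%, all genes 18.1%), the GATA factor motif AGATAA at 3 and 5 (all 10.2%), and AP-1 (TGANTCA) at 3 and 1 (all 6.91%). The AP-1 matches were at Krt13, Krt14, Krt15 and Krt4. TEAD (GGAATG) was found at 2 genes of each cluster (8.33% and 9.09%, all 13.5%). Grainyhead (AACNGGTT) was found at Krt80 alone (all genes 1.97%) and forkhead (TGTTTAC) at Krt86 alone (3.05%). ETS (CCGGAAG, 10.8% of all genes) and the CTCF consensus (2.54%) occurred at no member. SP and KLF matches can overlap AP-2 matches in GC-rich sequence. The letters GGGCGG and CCGGAAG each contain a CpG, in which keratin promoters are poor. The shares stand beside those of all genes, not of genes with a like CpG ratio, and the part of CpG was not tested.

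**Figure D5:**
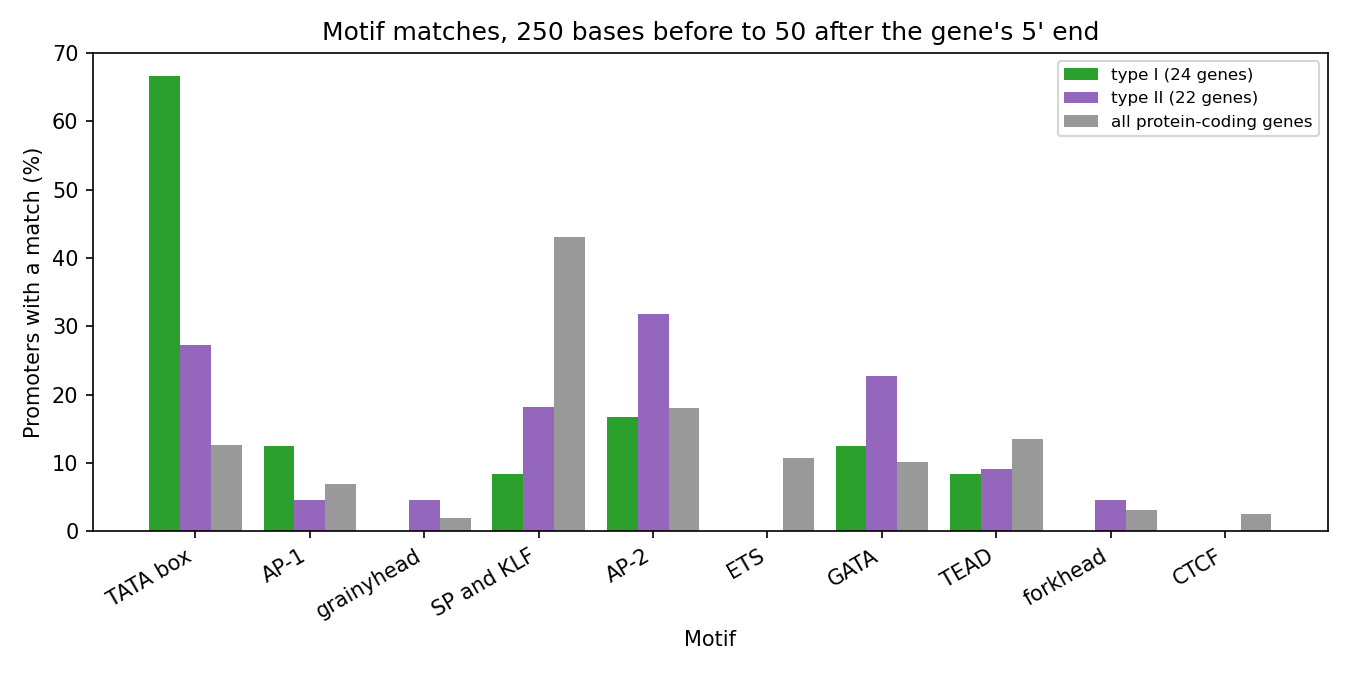
Percent of promoters with a match to each motif, 250 bases before to 50 after the 5′ end, for type I genes, type II genes and all protein-coding genes. The TATA box bars stand at 66.7% and 27.3% against 12.6%, and the SP and KLF bars at 8.33% and 18.2% against 43.0%.

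In the 150 bp around the middle of shared peaks, AP-2 matches were present in 7 of 21 type II sites and 1 of 14 type I sites, against 10.1% of all shared peaks. TEAD matches were present in 4 and 0 (10.4% of all), and CTCF matches in 1 and 3 (7.55% of all). The counts are small and describe these sites only. In 3 sites the CTCF letters, the motif of the factor that bounds chromatin loops, lay wholly inside a matched footprint, each printed on the strand of its motif with the motif in capitals.
Between Krt24 and Krt25 (minus strand, chr11:99307780-99307818): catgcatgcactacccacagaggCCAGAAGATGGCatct
Site 6686 bp from the start of Krtap1-5 (minus strand, chr11:99574311-99574343): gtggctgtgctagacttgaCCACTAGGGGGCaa
Site 2719 bp from the start of Gm49425 (plus strand, chr15:101519962-101519992): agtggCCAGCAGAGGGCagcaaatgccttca
The peaks at these sites had heights in replicate 1 of 1.27, 1.197 and 2.46, and in replicate 2 of 0.733, 0.774 and 0.795.

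The partners and regulators of keratin filaments were read from lists written with earlier results known, and each count stands beside the 60.7% of all genes with a promoter peak in both libraries. Of the 7 genes of plakins and linkers, which tie filaments to junctions, all 7 had promoter peaks in both libraries, with Evpl at 13.7 in replicate 1 and 8.37 in replicate 2, Tchp at 9.97 and 6.89, Ppl at 6.63 and 4.76 and Dst at 6.57 and 4.01. Of 14 desmosome genes 7 had one (50%, near the share of all genes), the tallest at Jup (38.4 and 35.8), which encodes plakoglobin, and Pkp4 (13.8 and 11.7). Dsc2 had a peak in replicate 1 alone, and the 6 without were Pkp1, Dsg1a, Dsg3, Dsg4, Dsc1 and Dsc3. Of 9 other intermediate filament genes 6 had one (66.7%, also near that share), with the lamin genes Lmna at 13.5 and 8.67 and Lmnb1 at 9.97 and 6.88. Of 10 genes of the cornified envelope and hair matrix only Tgm1, a transglutaminase, had one (3.82 and 2.35).

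Of 10 regulators known from kidney epithelium 9 had a promoter peak in each library, Ehf having one in replicate 1 alone. Elf3 had 13.2 in replicate 1 and 13.6 in replicate 2, Klf5 10.4 and 8.42, Tfcp2l1 7.43 and 5.46, and Grhl2 4.40 and 4.55. Of 11 regulators known from epidermis and hair 6 had one (54.5%), near the 60.7% of all genes. Grhl1 stood at 11.4 and 6.91, Klf4 at 9.08 and 5.14, Ovol1 at 4.99 and 3.05 and Tfap2a at 1.63 and 1.24, and Grhl3, Tfap2c and Dlx3 had a peak in replicate 1 alone. Trp63, the factor of basal epidermis, and Foxn1, of hair, had none. Of the tissue markers, all 6 proximal tubule genes had promoter peaks in both libraries and none of 6 epidermis and hair markers had any in either. Those 6 epidermis and hair markers also stand in the lists above. The marker lists too were written with earlier results known, so these counts are no independent check of the tissue. Of 7 urothelial markers 3 had peaks in both, namely the uroplakin genes Upk2 (2.997 and 1.18), Upk3a (1.64 and 1.15) and Upk1a (1.75 and 0.846), and 4 had none (Upk1b, Upk3b, Krt5 and Trp63). Urothelium also makes Krt7, and its part in the Krt7 peaks was not tested.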

How the data were processed

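DNase-seq files of 2 libraries of 1 group were used, biological replicates per the labels. Per the deposited description files, the authors derived each library's files from its own alignment to mm10. The sources used here do not name the aligner, the caller or the number of reads. The deposited peak files hold the authors' signal value, the peak height. Of 2 sets per library, the one with fewer peaks was used. The deposited false discovery rate files hold a q-value below 0.05 per interval, and the deposited footprint files a threshold of 0.01 in every row. Reads of the CAST/EiJ allele align to a C57BL/6J reference, whose effect was not analysed here. Genes were those of GENCODE M21. Peaks were shared at 1 base of overlap, and footprints matched at 50% of the shorter. Analyses used Python 3.11.15, numpy 2.4.6 and pandas 2.3.3. Only the counts of peaks in promoter and gene windows and of shared peaks were tested on simulated intervals. Motifs were exact matches on both strands; an HNF1 consensus searched too matched no promoter. Named genes were members with a promoter peak or matched promoter footprint, the 3 per cluster with most shared peaks (ties were not all named), the 3 genes left out by the rule, members without a peak by role, and, of the partner lists, up to 4 with the highest ranks and those without a peak where 5 or fewer. Other genes without a peak and single sites were named after their values were seen. The members and lists were chosen with earlier results of these data known. With 1 group no test was made. Alternatives were other windows, flanks, overlap rules and peak sets, nearest starts, starts of protein-coding transcripts, peaks away from starts, and each replicate left out; using the 5′ end alone was added after the data had been seen.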

Additional observations from a re-analysis of the deposited data

How the results depend on the processing

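Medians and densities were judged against the SD between the 2 replicates, which often exceeded the value itself, so that a fall could not pass it. The count of promoter peaks stayed at 2 per cluster with start-site windows of 500 and 2500 bp, with nearest starts, with starts of protein-coding transcripts and with the 5′ end alone. Among the stronger 50% of peaks it was 1 for type I (Krt10), the density per 100 kb fell to 0.193 (type I, from 1.35) and 1.65 (type II, from 3.46), and the type II median of peaks in genes plus flanks was 0 in place of 0.5, as it was without flanks. With each replicate left out, it ranged from 2 to 5 for type I and from 2 to 3 for type II, and promoter footprints from 3 to 5 and from 2 to 3. With a footprint overlap of 1 base, 2 type I genes had a promoter footprint. With each replicate left out, the median of peaks in genes plus flanks ranged from 0 to 1 (type I) and 0.5 to 2 (type II), that of footprints from 0 to 0.5 and 0.5 to 2, and the density per 100 kb from 1.45 to 3.86 and 3.46 to 6.43, the higher values being those without replicate 2. Flanks of 50 kb gave medians of 2.5 and 2.5 peaks and of 2 and 4 footprints, so that the clusters had equal medians of peaks there. The wider peak set gave type II 5.93 peaks per 100 kb. No paired analysis was possible because there is 1 group. Read totals are unknown, so a missing peak is one not detectable at this depth.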

Other observations

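The Krtap genes encode the proteins that bind hair keratins together and stand between the type I genes Krt40 and Krt34. All 23 were without promoter peaks, while 60.7% of all genes had one in both libraries. A shared peak lay within 10 kb of 3 of them, against 75.7% of all genes. These 3 have the same site in common, chr11:99574241-99574420. The 4 keratin genes whose symbols carry a letter (Krt6a, Krt6b, Krt33a and Krt33b) had no promoter peak either. At Krt20 the wider set, but not the stricter one, held 3 promoter sites in replicate 1 with heights of 0.306, 0.427 and 0.492, and none in replicate 2. At Krt80 the wider set also had a site across the 5′ end, at 0.640 in replicate 1 and 0.795 in replicate 2, below the upstream site that the stricter set called.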
